A study of Mus musculus with 9 samples.

Results

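The genes described here are 7 mouse genes of the IgE receptor, the IL-33 receptor and histamine handling that are characteristic of mast cells and basophils. They were taken by symbol from the annotation of the array. Fcer1a, Ms4a2 and Fcer1g encode the 3 chains of the high-affinity IgE receptor, Il1rl1 encodes the IL-33 receptor, Hdc and Slc18a2 make and store histamine, and Cd200r3 encodes an activating receptor of the CD200 receptor family. Of the 7 genes, 6 had a named probe, with 9 probes in all among the 45281 on the array, and these 6 were among the 9136 genes tested. Il1rl1 had no probe named for it and was not analysed here. Each of the 9 probes was detected on all 9 arrays, with a detection p-value of at most 0.00427.

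RNA was measured on 9 single-colour Illumina arrays, 3 for each of 3 constructs carried into bone marrow cells by a retrovirus. The constructs were MN1-TEL del DBD, MN1-TEL and MN1. MN1 is a transcriptional coactivator, MN1-TEL is a fusion of MN1 with the ETS-family factor TEL, and MN1-TEL del DBD is that fusion with a deletion the labels name DBD (called del DBD hereafter). All 3 groups shared the same starting cells, C57/Bl6 marrow enriched for c-kit, and the same liquid culture of 10 days, whose cytokines were SCF (20 ng/µl), IL-6 (10 ng/µl) and IL-3 (10 ng/µl). The cultures were bulk populations. No untransduced or empty-vector cells were analysed here, so the constructs could be set only against each other. Replicates are numbered in the labels without a statement that they were separate cultures, so a p-value reflects the variation among these arrays only, part of which may be technical.

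The high-affinity IgE receptor is built from an alpha chain that binds IgE, a beta chain that amplifies the signal and a pair of gamma chains that start it. When antigen crosslinks the bound IgE, kinases of the Src family and Syk act on these chains, and mast cells and basophils release granules that hold histamine and proteases. Both cell types can grow from bone marrow in cultures with IL-3, and SCF, the ligand of Kit, sustains mast cells. GATA2, with GATA1 in mast cells, is a main regulator of the alpha and beta chain genes, whereas the gamma chain serves several other receptors and is made in most myeloid cells.

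Levels below are normalized log2 intensities, and changes are differences between group means on that scale with their 95% confidence interval. Adjusted p-values come from limma over the 9136 genes, or over the 15870 kept probes where a gene's other probe is described. Levels of different probes were not set against each other. The 3 comparisons share arrays, so they are not independent. Between 14249 and 15273 probes were detected per array. Correlations between arrays of 1 group were 0.992 to 0.994 in del DBD, 0.975 to 0.990 in MN1-TEL and 0.993 to 0.994 in MN1, against 0.878 to 0.954 between groups. Replicate 2 was the array of MN1-TEL that correlated least with the other 2 (0.990 between replicates 1 and 3), and it also had the lowest array weight, 0.210 against 0.813 to 2.07 for the other 8 arrays. MN1-TEL replicate 1 stood apart for Fcer1a, as described below, and where leaving out either array moved a member's change by more than 1.5-fold or changed its call, the value without it is given. Kit, the marker by which the starting cells were enriched, was detected on all 9 arrays.

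Fcer1a, the alpha chain gene (ILMN_2863390; chr1:173221269-173227232, GRCm38.p6), was lowest in del DBD cells, at levels of 8.39, 8.52 and 8.49. Its levels were 13.44, 10.75 and 12.13 in the MN1-TEL arrays and 10.91, 11.26 and 11.39 in the MN1 arrays. The 3 del DBD arrays lay together far below the other 6, whereas the MN1-TEL arrays spread over a range that enclosed all 3 MN1 arrays. On the raw scale the same probe read 513.1, 551.8 and 519.9 in del DBD, against 12573.5, 2273 and 5258.2 in MN1-TEL and 1498.2, 1967.2 and 1908.2 in MN1. Fcer1a averaged 8.46 ± 0.07 in del DBD cells, against 12.10 ± 1.35 in MN1-TEL and 11.19 ± 0.25 in MN1 cells (SD, n = 3 each). It was 12.5-fold lower in del DBD than in MN1-TEL cells (log2 change -3.64, -4.83 to -2.45, adjusted p = 0.000898). This change was -2.97 without MN1-TEL replicate 1 (adjusted p = 0.000650) and -4.32 without MN1-TEL replicate 2 (adjusted p = 4.31e-05). Against MN1 it was 6.62-fold lower in del DBD cells (-2.73, -3.91 to -1.54, adjusted p = 0.00343). By size of change it ranked 26th of 9136 genes in the first of these comparisons and 204th in the second. MN1-TEL and MN1 cells did not differ beyond the spread between arrays (0.91, -0.27 to 2.10, adjusted p = 0.170). Without MN1-TEL replicate 2 the change was 1.59 and passed the threshold (adjusted p = 0.00304), and without MN1-TEL replicate 1 it was 0.25 (adjusted p = 0.583). With arrays scaled to the median of all probes it was 1.35 and also passed the threshold.

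The other Fcer1a probe (ILMN_2771342) gave the same order of groups. Its levels were 6.29, 6.38 and 6.69 in del DBD, 12.28, 9.21 and 10.48 in MN1-TEL, and 9.20, 9.39 and 9.37 in MN1. No del DBD array came near the other groups on this probe either, and MN1-TEL replicate 2 lay among the MN1 arrays. It was 18.4-fold lower in del DBD than in MN1-TEL cells (-4.20, adjusted p = 0.00133) and 7.28-fold lower than in MN1 cells (-2.86, adjusted p = 0.00711). The probe was dim in del DBD cells, so the sizes of these changes depend on the background correction. Without that correction they were -3.09 (adjusted p = 0.00126) and -1.86 (adjusted p = 0.0168). Its change in del DBD against MN1-TEL was -3.39 without MN1-TEL replicate 1 and -4.93 without MN1-TEL replicate 2. The change in MN1-TEL against MN1 was 1.34 (-0.04 to 2.72, adjusted p = 0.0976), 0.53 without MN1-TEL replicate 1 (adjusted p = 0.225) and 2.06 without MN1-TEL replicate 2, where it passed the threshold (adjusted p = 0.00344).

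Ms4a2, the beta chain gene (ILMN_2742703; chr19:11615517-11623790, GRCm38.p6), had levels of 9.41, 8.91 and 9.19 in del DBD cells. They were 11.53, 10.24 and 10.50 in MN1-TEL and 10.54, 10.45 and 10.64 in MN1. As for Fcer1a, all del DBD arrays lay below all others, and MN1-TEL replicate 1 was the highest of the 9. Its mean was 9.17 ± 0.25 in del DBD cells, against 10.76 ± 0.69 in MN1-TEL and 10.54 ± 0.09 in MN1 cells (SD, n = 3 each). It was 3.00-fold lower in del DBD than in MN1-TEL cells (-1.59, -2.24 to -0.93, adjusted p = 0.00330) and 2.59-fold lower than in MN1 cells (-1.37, -2.03 to -0.72, adjusted p = 0.00550). The change in MN1-TEL against MN1 was 0.21 (-0.44 to 0.87, adjusted p = 0.559), and it was -0.17 without MN1-TEL replicate 1. With arrays scaled to the median of all probes it was 0.73 and passed the threshold. The lower levels of Fcer1a and Ms4a2 in del DBD cells were called in both comparisons under all 23 alternatives tried.

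**Figure D1:**
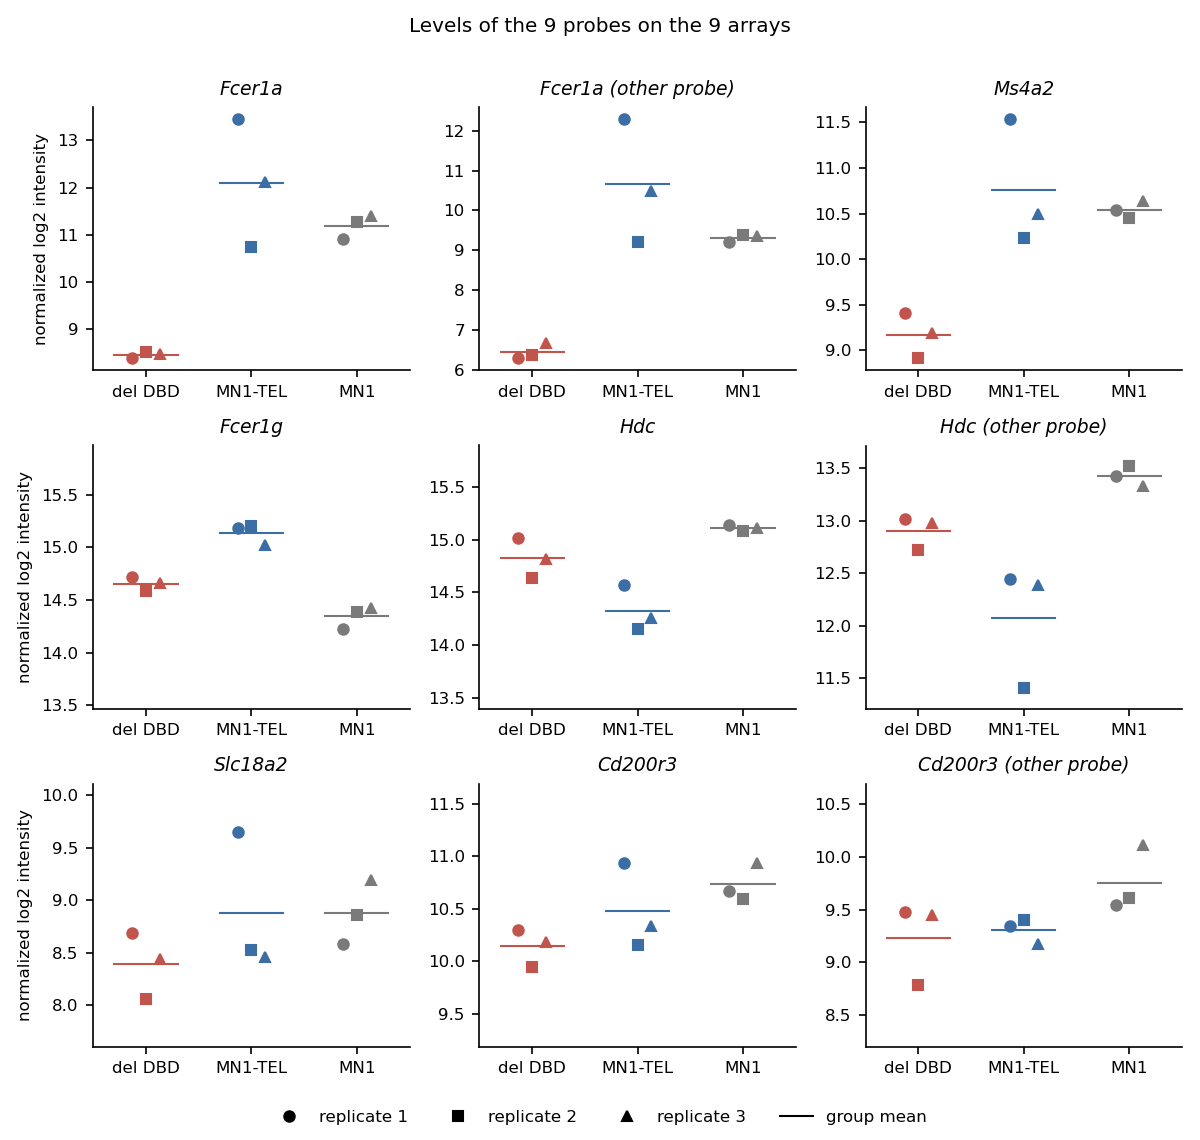
Normalized log2 intensity of the 9 probes (vertical axes, each with its own range) in del DBD, MN1-TEL and MN1 arrays, with a point per array, its shape giving the replicate number, and a line at the group mean. Both Fcer1a probes and Ms4a2 lie below the other groups in all 3 del DBD arrays, and MN1-TEL replicate 1 is the highest array for Fcer1a and Ms4a2.

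Most, but not all, markers of mast cells were lower in del DBD cells as well. Of 9 such markers 8 were tested, and the sum of their normalized linear intensities was 53608 to 62261 per array in del DBD, 87984 to 130440 in MN1-TEL and 80281 to 92450 in MN1 cells. Of the 8, 6 fell and 0 rose in del DBD against MN1-TEL, where 14.4% of all genes fell. In del DBD against MN1, 6 fell and 0 rose, where 19.1% of all genes fell. In MN1-TEL against MN1, where neither Fcer1a nor Ms4a2 was called, 3 of the 8 rose and 1 fell. Of all genes 25.3% rose and 29.4% fell there, 54.7% in all. Under the median scaling over kept probes 2 of the 8 markers rose and 3 fell. Cpa3, a bright probe with a large part in the sum, read 14.99 to 15.10 in del DBD and 14.96 to 14.98 in MN1-TEL. It was not called in any comparison. Kit, by which the starting cells were enriched, and Gata2 were among the 6 that fell in both del DBD comparisons. Among the defining markers, Mrgprb1 was detected on 0 of 9 arrays and Mrgprb2 on 0 of 3 del DBD arrays. The part of mast cell number in the Fcer1a and Ms4a2 results was not tested, and in bulk RNA fewer cells of a type and less RNA per cell cannot be told apart.

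Promoters of the 3 receptor chains are shown because Fcer1a and Ms4a2 moved together over the arrays while Fcer1g, the gamma chain of the same receptor, did not. The sequences are from RefSeq on GRCm38.p6, all on the minus strand, and run from 250 bases before to 50 bases after the start used there. Capitals mark matches on either strand to AGATAA or TGATAA, which hold the core letters that GATA factors bind, and to CCGGAA or AGGAAG, which hold the core letters that ETS factors bind.
Fcer1a, chr1:173227180-173227479: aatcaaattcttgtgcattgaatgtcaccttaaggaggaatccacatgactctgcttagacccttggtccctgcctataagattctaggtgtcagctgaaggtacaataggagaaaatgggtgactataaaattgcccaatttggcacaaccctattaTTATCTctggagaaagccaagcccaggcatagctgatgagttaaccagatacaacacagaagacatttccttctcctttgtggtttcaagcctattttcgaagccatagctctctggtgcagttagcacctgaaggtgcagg
Ms4a2, chr19:11623670-11623969: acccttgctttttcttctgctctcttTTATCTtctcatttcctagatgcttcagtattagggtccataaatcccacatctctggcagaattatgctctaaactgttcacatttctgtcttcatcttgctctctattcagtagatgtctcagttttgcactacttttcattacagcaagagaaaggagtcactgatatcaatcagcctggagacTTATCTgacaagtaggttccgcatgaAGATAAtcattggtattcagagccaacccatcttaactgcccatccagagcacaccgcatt
Fcer1g, chr1:171234300-171234599: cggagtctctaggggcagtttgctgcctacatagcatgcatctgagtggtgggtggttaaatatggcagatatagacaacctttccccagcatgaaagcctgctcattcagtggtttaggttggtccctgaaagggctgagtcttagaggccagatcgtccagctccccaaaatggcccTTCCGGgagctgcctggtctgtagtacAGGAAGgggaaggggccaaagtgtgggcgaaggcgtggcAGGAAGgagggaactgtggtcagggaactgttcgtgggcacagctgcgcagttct
The Fcer1a window held 1 match to AGATAA, which began 92 bases before the start. The Ms4a2 window held 3, which began 224, 37 and 11 bases before the start. Neither window matched CCGGAA or AGGAAG. The Fcer1g window differed in these exact letters, with 0 matches to AGATAA, 1 to CCGGAA at 71 bases and 2 to AGGAAG at 44 and 5 bases before the start. Shorter core letters were not counted, and some stand unmarked. GGAA or its reverse complement TTCC stands in the Fcer1a and Ms4a2 windows, and GATA in that of Fcer1g. No 2 matches overlapped in these windows. CANNTG, the letters of an E-box, was searched as well but stands in 72.3% of promoters and was not marked. Of 32851 mouse promoters of the same length, 11.2% held AGATAA, 9.05% TGATAA, 14.9% CCGGAA and 35.4% AGGAAG, and 35 promoters (0.107%) held AGATAA at least 3 times. Among the other members, Il1rl1, which has 2 windows in the table, had 2 matches to AGATAA and 1 to TGATAA, Slc18a2 and Cd200r3 had 1 match each to AGATAA, Cd200r3 had 1 to TGATAA, Hdc had 0 to either, and Hdc, Slc18a2 and Cd200r3 had 1 each to AGGAAG. A match describes the letters of the window and does not show that a factor binds there.

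Fcer1g, the gamma chain gene (ILMN_2748875; chr1:171229572-171234349, GRCm38.p6), had another order of groups than the other 2 chains. Its levels were 14.72, 14.59 and 14.66 in del DBD, 15.18, 15.21 and 15.02 in MN1-TEL, and 14.23, 14.39 and 14.42 in MN1 cells. The 3 groups did not overlap, with MN1-TEL highest and MN1 lowest. Fcer1g was 1.73-fold higher in MN1-TEL than in MN1 cells (0.79, 0.56 to 1.02, adjusted p = 0.000169). With arrays scaled to the median of the kept probes, this change was 0.22 and missed the threshold (adjusted p = 0.182). In del DBD cells it was 1.40-fold lower than in MN1-TEL cells (-0.48, -0.71 to -0.25, adjusted p = 0.00695). Against MN1 the change in del DBD was 0.31 (0.08 to 0.54, adjusted p = 0.0407), but this call was lost in 13 of 23 alternatives, in 1 of which, the median scaling over kept probes, the direction turned to -0.19 (adjusted p = 0.276).

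The Fcer1g probe was among the brightest on the arrays. Its raw intensity was 25365.5 to 28548 in del DBD, 34575.8 to 40088.6 in MN1-TEL and 16976.9 to 19136.6 in MN1, which placed it 141st to 171st of all probes in del DBD, 15th to 75th in MN1-TEL and 208th to 256th in MN1 arrays. At its highest it reached 92.2% of its array's brightest probe, and whether it neared saturation was not tested. Markers of neutrophils, which also make the gamma chain, summed to 105400 to 115490 in del DBD and 127020 to 140400 in MN1-TEL, against 8096 to 9452 in MN1 arrays. Of 13 tested, 12 rose and 0 fell in MN1-TEL against MN1, where 25.3% of all genes rose and 29.4% fell. In del DBD against MN1 10 rose and 0 fell, where 18% of all genes rose and 19.1% fell. Over the alternatives 4 to 12 and 5 to 11 rose, and only 5 of the 13 were detected on all 3 MN1 arrays. Monocyte and macrophage markers summed to 21140 to 25841 in del DBD, 41534 to 48577 in MN1-TEL and 4687 to 5897 in MN1 arrays, with 7 of 9 higher and 2 lower in each of these comparisons. Of the same lists, 2 neutrophil markers rose and 6 fell in del DBD against MN1-TEL, and 2 monocyte markers rose and 4 fell. Of all genes 15% rose and 14.4% fell there. Both sums had the order of groups that Fcer1g had, and their part in its result was not tested.

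Hdc encodes histidine decarboxylase, the enzyme that makes histamine (ILMN_2965903; chr2:126593659-126624025, GRCm38.p6). It was the 1 member whose level was lowest in MN1-TEL cells. Its levels were 15.01, 14.63 and 14.82 in del DBD, 14.57, 14.15 and 14.25 in MN1-TEL, and 15.14, 15.08 and 15.11 in MN1. The groups did not overlap. Hdc was 1.72-fold lower in MN1-TEL than in MN1 cells (-0.78, -1.09 to -0.47, adjusted p = 0.00108), and this call held under all 23 alternatives, with changes of -1.45 to -0.70. In del DBD it was 1.41-fold higher than in MN1-TEL cells (0.50, 0.19 to 0.81, adjusted p = 0.0234), a call that was lost in 5 of 23 alternatives. The raw intensity of this probe was 47.3% to 85.3% of its array's brightest probe, and saturation was not tested. Against MN1 the change in del DBD was -0.29 (-0.59 to 0.02, adjusted p = 0.134), and 3 alternatives brought it past the threshold.

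The other Hdc probe (ILMN_1256122) read 13.02, 12.72 and 12.98 in del DBD, 12.44, 11.40 and 12.39 in MN1-TEL, and 13.43, 13.52 and 13.33 in MN1. It kept the order of the first probe with a wider gap. Hdc on this probe was 2.54-fold lower in MN1-TEL than in MN1 cells (-1.35, adjusted p = 0.00205) and 1.77-fold higher in del DBD than in MN1-TEL cells (0.83, adjusted p = 0.0427), the second of which was not past the threshold in 8 of the 14 alternatives run for single probes (adjusted p up to 0.122), and its change in del DBD against MN1 was -0.52 (adjusted p = 0.150). Basophil markers, of which 7 of 8 were tested, summed to 39825 to 46139 in del DBD, 46951 to 54308 in MN1-TEL and 35963 to 37373 in MN1 arrays, an order other than that of Hdc. The brightest probes weigh most in this sum, and these were Cd63, also made by other cells, and Cd69. Cd63 read 13.74, 13.61 and 13.51 in del DBD, 14.64, 14.22 and 14.42 in MN1-TEL, and 13.49, 13.47 and 13.26 in MN1. The sum is therefore not a measure of basophil number. Of the 7 markers, 3 rose and 1 fell in MN1-TEL against MN1, where Hdc fell and where 25.3% of all genes rose and 29.4% fell. Prss34, a basophil protease, rose there (1.19, a call lost in 6 of 23 alternatives), as did Cd63 (1.02) and Itgb7 (0.83). The 1 that fell was Mcpt8, another basophil protease, which followed the order of Hdc in part. It had 12.19, 12.05 and 12.22 in del DBD, against 10.03, 11.03 and 10.19 in MN1-TEL and 11.94, 11.64 and 12.14 in MN1, and so fell in MN1-TEL against MN1 (-1.49, adjusted p = 0.000688) and rose in del DBD against MN1-TEL (1.73, adjusted p = 0.000724).

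Slc18a2 encodes VMAT2, the transporter that loads histamine and serotonin into granules (ILMN_2739303; chr19:59260878-59296012, GRCm38.p6). It had levels of 8.68, 8.06 and 8.44 in del DBD, 9.65, 8.52 and 8.46 in MN1-TEL and 8.59, 8.85 and 9.19 in MN1. All 3 groups overlapped. Its change was -0.48 in del DBD against MN1-TEL (-1.19 to 0.23, adjusted p = 0.288) and -0.48 in del DBD against MN1 (-1.19 to 0.23, adjusted p = 0.263). For MN1-TEL against MN1 it was 0.00 (-0.71 to 0.71, adjusted p = 0.998). These intervals leave room for changes of more than 1.5-fold, so no equality was shown.

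Cd200r3 encodes a receptor that signals through the adaptor DAP12 in mouse mast cells and basophils (ILMN_1231982; chr16:44943596-45058365, GRCm38.p6). Its levels were 10.30, 9.95 and 10.18 in del DBD, 10.93, 10.16 and 10.34 in MN1-TEL, and 10.67, 10.59 and 10.93 in MN1. The del DBD arrays lay below all MN1 arrays and overlapped with MN1-TEL. The change in del DBD against MN1 was -0.59 (-1.04 to -0.14, adjusted p = 0.0438), and this call was lost in 10 of 23 alternatives, among them those that left out any del DBD or MN1 array (adjusted p up to 0.144). Against MN1-TEL the change in del DBD was -0.33 (adjusted p = 0.244). The change in MN1-TEL against MN1 was -0.26 (adjusted p = 0.304), and it was -0.48 without MN1-TEL replicate 1 and passed the threshold (adjusted p = 0.0279). The other probe (ILMN_2673675) read 9.48, 8.78 and 9.45 in del DBD, 9.34, 9.40 and 9.18 in MN1-TEL and 9.55, 9.61 and 10.11 in MN1, and both other groups lay below all MN1 arrays. It gave -0.52 in del DBD against MN1 (adjusted p = 0.0976), -0.07 in del DBD against MN1-TEL (adjusted p = 0.852) and -0.45 in MN1-TEL against MN1 (adjusted p = 0.114), none past the threshold.

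Counted by comparison, in del DBD against MN1-TEL 3 of the 6 tested members fell (Fcer1a, Ms4a2 and Fcer1g) and 1 rose (Hdc). Across all genes 14.4% fell and 15% rose in that comparison, 29.4% in all, and 41.9% had groups that did not overlap, as 4 of the 6 members did. In del DBD against MN1, 3 fell (Fcer1a, Ms4a2 and Cd200r3) and 1 rose (Fcer1g), where 19.1% of all genes fell and 18% rose, 37.1% in all. Groups did not overlap for 5 of the 6 members there and for 58.6% of all genes. In MN1-TEL against MN1, 1 rose (Fcer1g) and 1 fell (Hdc), where 25.3% of all genes rose and 29.4% fell, 54.7% in all. The groups of the same 2 members did not overlap there, as was so for 60.8% of all genes. The members' changes therefore ranged from the 26th largest of all genes to one of the smallest (Slc18a2, 9126th of 9136 in MN1-TEL against MN1).

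**Figure D2:**
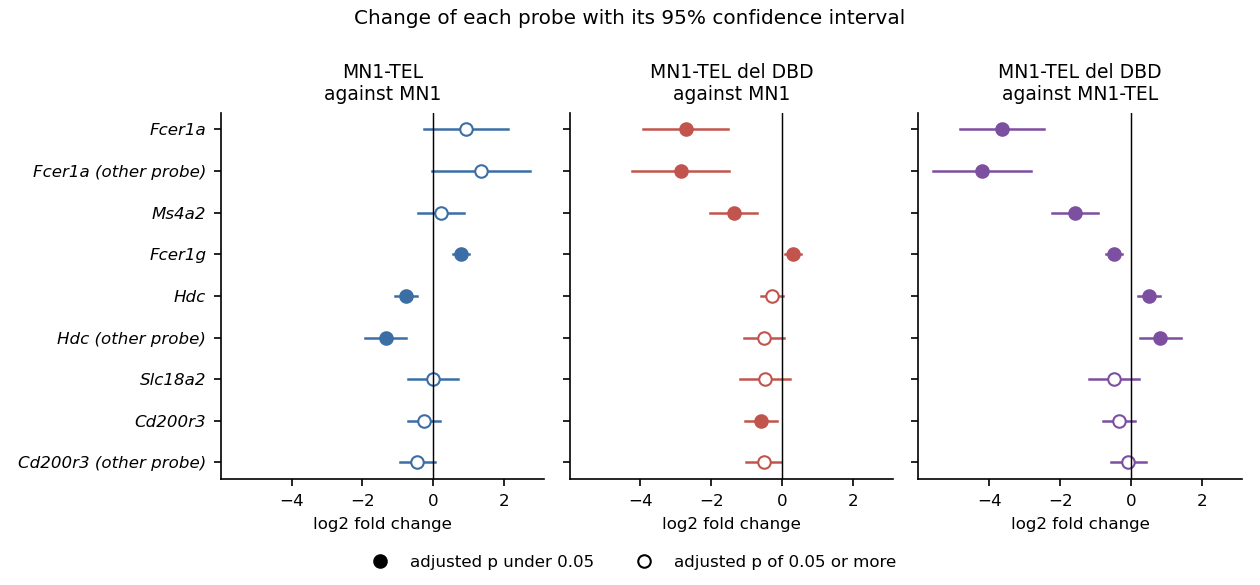
Log2 fold change of each probe (horizontal axis, positive where the construct named before "against" was higher) with its 95% confidence interval, in the 3 comparisons; filled points have an adjusted p under 0.05. The intervals of both Fcer1a probes and of Ms4a2 lie wholly below 0 in both del DBD comparisons, and those of the gamma chain gene Fcer1g are narrow and lie above 0 in both comparisons against MN1, though its change in del DBD against MN1 was -0.19 under the median scaling over kept probes.

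The way arrays were normalized moved several changes and calls of members, but left Fcer1a and Ms4a2 called lower in del DBD cells. With each array scaled to the median of all its probes, the median change over all genes was 0.40 in MN1-TEL against MN1 and 0.34 in del DBD against MN1, against -0.06 and -0.04 after quantile normalization, and 4497 genes rose and 1028 fell in MN1-TEL against MN1, against 2309 and 2686. Relative to those shifts Fcer1a and Ms4a2 kept their falls in del DBD cells. Under that scaling Fcer1a at 1.35 and Ms4a2 at 0.73 passed the threshold in MN1-TEL against MN1, so their lack of a call there depended on the scaling. The signs of Slc18a2 and Cd200r3 in that comparison turned to 0.57 and 0.25, neither past the threshold. With the median scaling over kept probes Hdc was at -1.45 and Fcer1g at 0.22 in MN1-TEL against MN1. Between del DBD and MN1-TEL no member changed sign under any scaling.

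**Figure D3:**
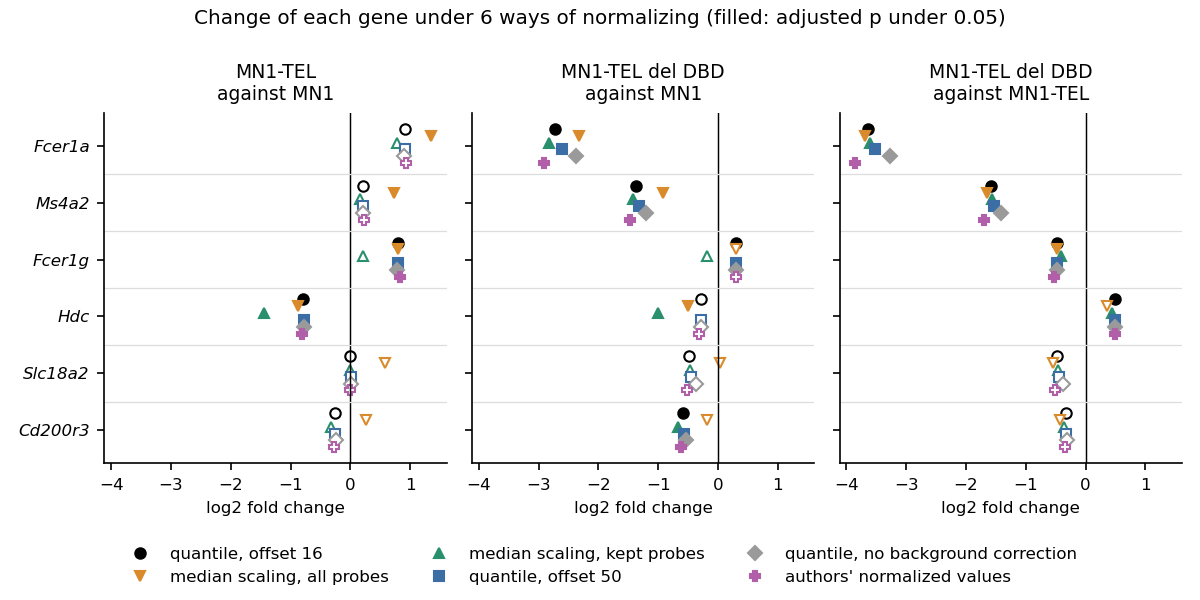
Log2 fold change of the 6 genes (horizontal axis) under 6 ways of normalizing, 1 symbol each, in the 3 comparisons; filled symbols have an adjusted p under 0.05. Fcer1a and Ms4a2 lie below 0 in both del DBD comparisons under all 6, whereas Fcer1g in del DBD against MN1 lies above 0 under 5 and below 0 under the median scaling over kept probes.

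Fcer1a, Ms4a2 and Slc18a2 differed more among the MN1-TEL replicates than most genes did. In replicate 1 Fcer1a lay 2.01 above the mean of the other 2 MN1-TEL arrays, the second largest such gap of all 9136 genes after Fcmr at 3.30, and in replicate 2 it lay 2.04 below the mean of the others. Its other probe gave 2.44 and -2.17. Ms4a2 lay 1.17 above the others in replicate 1 and Slc18a2 1.16, both at percentile 99.5 of all genes. Cd200r3 lay 0.68 above (percentile 96.3, but 0.05 above on its other probe) and Hdc 0.37 (percentile 88.3). Fcer1g lay only 0.07 above (percentile 65.3), and the median over all genes was -0.04. Some related lists had medians above 0 in replicate 1 and below 0 in replicate 2. These were 0.46 and -0.58 for mast cell markers, 0.34 and -0.25 for mast cell proteases, 0.63 and -0.48 for amine handling, 0.47 and -0.12 for mast cell receptors, 0.26 and -0.28 for transcription factors, 0.29 and -0.25 for basophil markers and 0.13 and -0.15 for IgE receptor signalling. Others did not, with -0.55 and 0.46 for the Ms4a family, -0.31 and 0.14 for Fc receptors, -0.02 and 0.07 for the IL-33 receptor pathway, 0.03 and 0.28 for cytokines, 0.03 and 0.35 for the CD200 receptor family, and -0.04 and 0.06 for exocytosis.

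**Figure D4:**
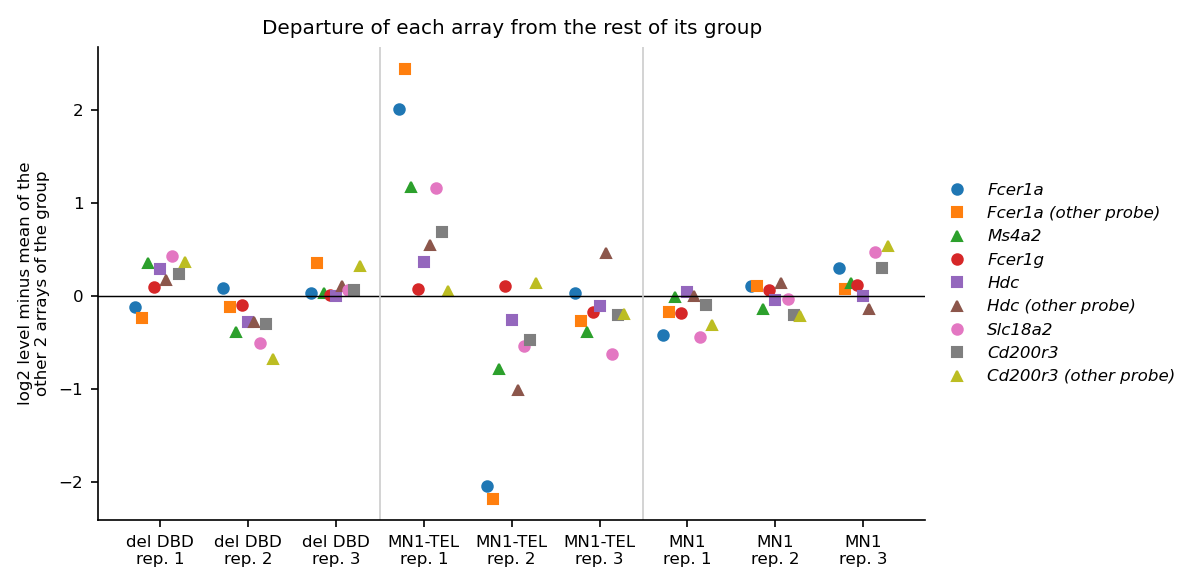
Normalized log2 level of each probe minus the mean of the other 2 arrays of its group (vertical axis) on each of the 9 arrays (horizontal axis). Fcer1a spreads from -2.04 to 2.01 over the MN1-TEL arrays, and Fcer1g stays between -0.18 and 0.12 on all 9 arrays.

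Over the 9 arrays the alpha and beta chain genes had like profiles (Pearson r = 0.967 between Fcer1a and Ms4a2), whereas neither was close to Fcer1g (r = 0.327 for Fcer1a and 0.246 for Ms4a2). Slc18a2 and Cd200r3 had r = 0.891 with each other and 0.807 and 0.841 with Ms4a2. Fcer1g and Hdc ran opposite (r = -0.87). These values describe 9 arrays in 3 groups, so they mostly restate the group means. Among all named genes, those most like Fcer1a were Nckap1 (r = 0.986), Fyb (0.980) and Rsad1 (0.978). For Ms4a2 they were Lat2 (0.993), Lxn (0.982) and Hic1 (0.977). The profile of Fcer1g was closest to Lasp1 (0.994), Exoc6b (0.993) and Zfand2a (0.991), and that of Hdc to Nlgn2 (0.986), Trbv13-2 (0.969) and Gaa (0.967). For Slc18a2 the closest were Car13 (0.950), Top1mt (0.923) and Cd200r3, and for Cd200r3 they were Epdr1 (0.963), Ikzf2 (0.958) and Pakap (0.957). Of these genes, Hic1 was detected on 0 of 3 del DBD arrays and Nlgn2 on 2 of 3 MN1-TEL arrays. Ikzf2 and Pakap were each detected on 1 of 3 del DBD and 2 of 3 MN1-TEL arrays. Their correlations therefore rest in part on levels near background. Lat2, an adaptor that is phosphorylated after IgE receptor crosslinking, had levels of 13.34, 13.22 and 13.20 in del DBD, 14.28, 13.66 and 13.79 in MN1-TEL, and 13.84, 13.82 and 13.91 in MN1, so that its del DBD arrays too lay below all others.

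The genes that act next to the members were followed as lists, given as counts of genes past the threshold and as medians, without a test of the list. The median of all genes was 0.02 in del DBD against MN1-TEL, -0.04 in del DBD against MN1 and -0.06 in MN1-TEL against MN1. Across all genes 15% rose and 14.4% fell in the first of these comparisons and 18% rose and 19.1% fell in the second. In the third 25.3% rose and 29.4% fell, 54.7% in all, so that many calls in a list are usual there. Of 38 genes of IgE receptor signalling, 33 had a named probe and 25 were tested. Of these, 2 rose and 10 fell in del DBD against MN1-TEL (median -0.10), in del DBD against MN1 10 rose and 4 fell (median 0.16), and in MN1-TEL against MN1 13 rose and 5 fell (median 0.52). The del DBD against MN1 median was -0.01 under the median scaling over kept probes, and in MN1-TEL against MN1 16 rose and 1 fell under the median scaling over all probes. Lat, the adaptor that recruits phospholipase C, had 8.82, 8.05 and 8.68 in del DBD, 10.78, 9.96 and 9.64 in MN1-TEL and 10.05, 10.22 and 10.65 in MN1. Its del DBD arrays lay below all others, as for Fcer1a, and it fell in del DBD against MN1-TEL (-1.61, adjusted p = 0.00427). The kinase gene Prkcb fell in the same comparison (-1.65, adjusted p = 0.00307), as did Prkcd (-0.53, adjusted p = 0.00439) and the transcription factor gene Nfatc1 (-0.53, adjusted p = 0.00319). In MN1-TEL against MN1, Nfatc1 rose by 1.26, Prkcd by 1.32 and the calcium channel gene Orai1 by 1.41, and in del DBD against MN1 Orai1 rose by 1.43. Lyn, a Src-family kinase of the receptor, had no named probe and was not analysed here.

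The IL-33 receptor pathway could be followed only below the receptor. Of 22 genes 19 had a named probe and 18 were tested, of which 0 rose and 2 fell in del DBD against MN1-TEL, 5 rose and 2 fell in del DBD against MN1, and 7 rose and 2 fell in MN1-TEL against MN1 (medians -0.04, 0.31 and 0.28). Across all genes 37.1% were called in del DBD against MN1 and 54.7% in MN1-TEL against MN1, near the shares of this pathway. Under the median scaling over all probes the counts were 0 and 4, 11 and 0, and 14 and 1 in the same comparisons (medians -0.15, 0.66 and 0.72). Myd88, the adaptor of the receptor, fell in del DBD against MN1-TEL (-0.56, adjusted p = 0.00191), and rose in del DBD against MN1 (0.85) and in MN1-TEL against MN1 (1.41). Il1rap, the co-receptor, was detected on 1 of 3 MN1-TEL arrays and on all MN1 arrays, so that its change of -1.03 in MN1-TEL against MN1 (adjusted p = 0.00175) rests on values near background and ranged from -1.30 to -0.41 over the alternatives. Il33 itself was detected on 0 arrays.

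The tested amine handling genes other than the members were highest in MN1-TEL cells for the most part. Of 15 genes 14 had a named probe and 6 were tested. In del DBD against MN1-TEL 5 fell and 0 rose (median -2.13), and in del DBD against MN1 1 rose and 2 fell (median -0.13). In MN1-TEL against MN1 6 rose and 0 fell (median 1.87). Over the alternatives, 3 to 5 fell in del DBD against MN1-TEL, with medians of -2.92 to -0.14. Those in MN1-TEL against MN1 were 0.21 to 2.33, with 3 to 6 genes higher. Tph1, which makes serotonin's precursor, had 11.59, 11.13 and 11.68 in del DBD, 15.04, 13.77 and 14.60 in MN1-TEL and 11.76, 12.30 and 12.37 in MN1. The 3 groups did not overlap, with MN1-TEL far above the others, and Tph1 fell in del DBD against MN1-TEL (-3.00, adjusted p = 0.000127) and rose in MN1-TEL against MN1 (2.33, adjusted p = 0.000193). Ddc, which completes serotonin synthesis, fell by 2.92 in del DBD against MN1-TEL (adjusted p = 0.000174) and rose by 3.47 in MN1-TEL against MN1 (adjusted p = 1.70e-05). Slc6a4, the serotonin transporter, was detected on 2 of 3 del DBD arrays and fell there against MN1-TEL (-1.83, adjusted p = 0.000137). The histamine receptor gene Hrh4 was detected on 0 del DBD arrays and was at least 2.13-fold lower there than in MN1-TEL cells. It was detected on 3 arrays in all, so it passed the filter only through the group where it was high. The histamine-degrading enzymes Hnmt and Aoc1 were detected on 0 arrays. In MN1-TEL against MN1, the serotonin synthesis genes Tph1 and Ddc thus rose while Hdc fell.

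Of 19 genes of mast cell proteases and proteoglycan, 17 had a named probe and 14 were tested. Among them 0 rose and 6 fell in del DBD against MN1-TEL (median -0.39), in del DBD against MN1 1 rose and 6 fell (median -0.37), and in MN1-TEL against MN1 6 rose and 3 fell (median 0.22). The falls numbered 3 in del DBD against MN1 under the median scaling over all probes and 9 under that over kept probes, and 0 and 5 in MN1-TEL against MN1. The chymase genes changed most. Mcpt4 had 7.84, 6.67 and 8.26 in del DBD, 12.48, 10.48 and 11.82 in MN1-TEL and 9.23, 10.00 and 9.88 in MN1, 3 groups without overlap, and fell by 4.01 in del DBD against MN1-TEL (adjusted p = 0.000541). Cma1 fell by 2.48 and Cma2 by 4.10 in that comparison, and by 1.14 and 2.39 in del DBD against MN1. Mcpt1 was detected on 0 of 3 del DBD arrays and was at least 4.48-fold lower there than in MN1-TEL cells. These genes are related, and cross-binding of their probes was not tested. Cpa3, the mast cell carboxypeptidase, did not pass the test in any comparison (adjusted p = 0.350 to 0.805), at 14.99, 15.03 and 15.10 in del DBD, 14.97, 14.98 and 14.96 in MN1-TEL and 15.10, 15.03 and 15.08 in MN1. Its raw intensity was 75.3% to 86.9% of the brightest probe on each array, and saturation was not tested.

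Mast cell receptors and lipid mediator enzymes, with 8 of 12 genes tested, followed Fcer1a in del DBD against MN1-TEL, where 0 rose and 6 fell (median -1.55). Against MN1, 3 rose and 3 fell in del DBD (median 0.05, and -0.11 under the median scaling over kept probes), and in MN1-TEL against MN1 7 rose and 1 fell (median 1.49). Kit had 12.35, 11.95 and 12.19 in del DBD, 14.75, 13.86 and 14.56 in MN1-TEL and 13.64, 13.53 and 13.81 in MN1. The groups did not overlap, and Kit fell in del DBD against MN1-TEL (-2.23, adjusted p = 9.94e-05) and against MN1 (-1.50, adjusted p = 0.000657). Hpgds, the prostaglandin D synthase of mast cells, fell by 3.42 in del DBD against MN1-TEL and rose by 2.13 in MN1-TEL against MN1. Mrgprb2, a receptor for basic secretagogues, was at least 2.81-fold lower in del DBD than in MN1 cells.

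**Figure D5:**
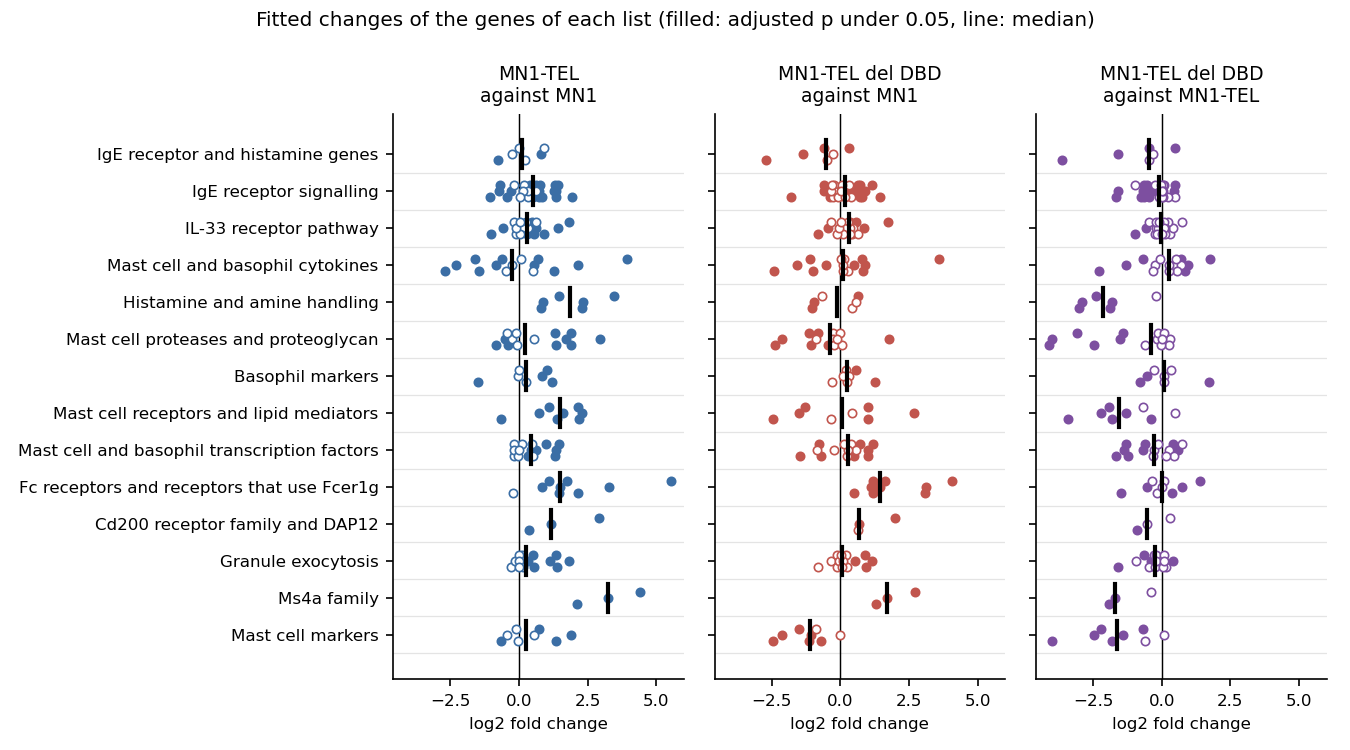
Log2 fold change (horizontal axis) of the tested genes of each list plotted, 1 point per gene, in the 3 comparisons, with filled points where the adjusted p was under 0.05 and a vertical line at the list's median. The medians of amine handling (-2.13), mast cell receptors and lipid mediators (-1.55), mast cell markers (-1.61) and the Ms4a family (-1.69) lie farthest below 0 of the lists plotted in del DBD against MN1-TEL. Over the alternatives these medians were -2.92 to -0.14, -1.72 to -0.68, -1.84 to -1.03 and -1.95 to -0.31, in the same order.

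Basophil markers did not follow Fcer1a. Of 7 tested, 1 rose (Mcpt8) and 2 fell in del DBD against MN1-TEL (median 0.08, and -0.08 under the median scaling over all probes), in del DBD against MN1 2 rose and 0 fell (median 0.24, but 0 rose and 2 fell under the median scaling over kept probes), and in MN1-TEL against MN1 3 rose and 1 fell (median 0.25). Cd63, a granule membrane protein also made by other cells, fell by 0.81 in del DBD against MN1-TEL (adjusted p = 0.00177), and so did the steroid enzyme gene Cyp11a1 (-0.55, adjusted p = 0.0195), a call lost in 3 of 23 alternatives. Prss34, a basophil protease, rose by 1.26 in del DBD against MN1 (adjusted p = 0.0313), lost in 9 of 23 alternatives, and by 1.19 in MN1-TEL against MN1 (adjusted p = 0.0282), where the groups overlapped and 6 of 23 alternatives missed the threshold (adjusted p up to 0.101). Itga2 was detected on 0 arrays.

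Transcription factors of mast cells and basophils, with 15 of 18 genes tested, had 2 that rose and 6 that fell in del DBD against MN1-TEL, 5 and 3 in del DBD against MN1, and 7 and 0 in MN1-TEL against MN1 (medians -0.30, 0.26 and 0.43). Gata2 had 13.76, 13.40 and 13.66 in del DBD, 14.54, 13.94 and 14.36 in MN1-TEL and 14.18, 14.33 and 14.43 in MN1. Its del DBD arrays lay below all others, the pattern of Fcer1a and Ms4a2 at a smaller size, with changes of -0.67 in del DBD against MN1-TEL (adjusted p = 0.0140, lost without del DBD replicate 2 at 0.0562) and -0.70 in del DBD against MN1 (adjusted p = 0.00907). Gata1 was detected on 2 of 3 del DBD arrays and fell there against MN1-TEL (-1.66, adjusted p = 0.000950). Zeb2 fell in del DBD against MN1-TEL (-1.29) and against MN1 (-1.45). The ETS-family factor gene Spi1 rose in MN1-TEL against MN1 (1.33) and in del DBD against MN1 (1.01).

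Receptors that use the gamma chain or bind antibody moved with Fcer1g in both comparisons against MN1. Of 14 genes 9 were tested, and all 9 rose in del DBD against MN1 (median 1.44) and 8 rose and 0 fell in MN1-TEL against MN1 (median 1.48). Between del DBD and MN1-TEL, 3 rose and 2 fell in del DBD (median 0.00). Clec4n, which encodes the C-type lectin dectin-2, had 10.72, 10.62 and 10.49 in del DBD, 11.99, 12.16 and 12.08 in MN1-TEL and 6.34, 6.70 and 6.63 in MN1. MN1 was far below both other groups, with rises of 4.05 in del DBD (adjusted p = 4.21e-08) and 5.52 in MN1-TEL (adjusted p = 5.65e-09). Fcgr3, the low-affinity IgG receptor, rose by 1.44 and Fcgr4 by 3.27 in MN1-TEL against MN1. The neutrophil and monocyte markers given above moved the same way, and their part was not tested. Near Cd200r3, the adaptor gene Tyrobp (DAP12) rose by 2.00 in del DBD and by 2.92 in MN1-TEL against MN1, unlike Cd200r3 itself, and fell by 0.92 in del DBD against MN1-TEL. Of the 6 genes of that family and its adaptors 3 were tested, with 0 up and 1 down in del DBD against MN1-TEL, 2 and 0 in del DBD against MN1, and 3 and 0 in MN1-TEL against MN1 (medians -0.53, 0.66 and 1.16). The tested relatives of Ms4a2 did not share its pattern against MN1. All 3 tested of 11, Ms4a3, Ms4a6d and Ms4a7, rose in del DBD against MN1 (median 1.71) and in MN1-TEL against MN1 (median 3.23). In del DBD against MN1-TEL 0 rose and 2 fell (median -1.69). Over the alternatives the medians were -0.03 to 2.21, 0.30 to 3.68 and -1.95 to -0.31 in the same comparisons. Ms4a7 was detected on only 6 arrays.

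Granule exocytosis genes, with 14 of 19 tested, had 1 that rose and 3 that fell in del DBD against MN1-TEL, 4 and 0 in del DBD against MN1, and 7 and 0 in MN1-TEL against MN1 (medians -0.23, 0.07 and 0.24, of which the second was -0.02 under the median scaling over kept probes). In MN1-TEL against MN1, 7 called of 14 is near the 54.7% called across all genes. Under the median scaling over all probes the counts were 0 and 6, 8 and 0, and 11 and 0 in the same comparisons (medians -0.35, 0.48 and 0.60). Stx3, a membrane fusion protein, had 9.67, 9.14 and 9.16 in del DBD, 10.95, 10.82 and 11.03 in MN1-TEL and 9.30, 9.05 and 8.99 in MN1. MN1-TEL alone was high, and Stx3 fell in del DBD against MN1-TEL (-1.61, adjusted p = 0.000105). Snap23, its partner, rose in del DBD against MN1 (1.15) and in MN1-TEL against MN1 (1.39). Cytokines of mast cells and basophils, with 15 of 18 genes tested, changed in both directions, with 4 up and 3 down in del DBD against MN1-TEL, 5 and 5 in del DBD against MN1, and 5 and 6 in MN1-TEL against MN1. Their median in MN1-TEL against MN1 was -0.27, and 0.18 under the median scaling over all probes. In del DBD against MN1 6 rose and 3 fell under that scaling and 3 rose and 6 fell under that over kept probes. Vegfa rose (1.75, adjusted p = 5.46e-05) and Ccl2 (-2.29), Tnf (-1.32) and Osm (-0.70) fell in del DBD against MN1-TEL. The call of Osm was lost in 1 of 23 alternatives, where the mean of the gene's probes stood for it (adjusted p = 0.227). Csf2, which encodes GM-CSF, fell in del DBD against MN1 (-2.42, adjusted p = 0.000410).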

How the data were processed

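Total RNA of 9 samples was hybridised to Illumina mouse arrays after labelling with biotin, per the labels. Groups and replicate numbers were read from the sample titles. GenomeStudio 2010.3 was used, per the submitters' processing notes, and its settings are not given in any source used. The authors deposited a table of raw intensity per probe and array, each with a detection p-value against the array's negative controls, per the file headers. A second deposited table holds the authors' normalized intensity values, and another their group means. The rank order of probes within each array was the same in the raw and the normalized table (correlation 1), and their group means lay within 0.0667 of those computed from that table. No 2 arrays held identical values.

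With neqc of limma 3.58.1 in R 4.3.3, intensities were background-corrected with negative controls inferred from the detection p-values, given an offset of 16, quantile normalized and taken to log2. The filter kept the 15870 probes detected on 3 or more of the 9 arrays, at a detection p-value under 0.01. Of all probes 34885 had 1 symbol in the platform annotation, 18 several and 10378 none, and 34807 were matched to current symbols by Entrez identifier. Where a gene had several kept probes, the brightest on average stood for it. One linear model with group as its factor was fitted to all 9 arrays, with two-sided moderated tests of limma, 6 residual degrees of freedom and Benjamini-Hochberg adjustment over 9136 genes at a threshold of 0.05. The number of arrays limits the precision. Bounds ("at least") set the brighter group's mean against, per array, the higher of the dim probe's value and the lowest value among detected probes. Only the limma step was run on simulated log2 values with known changes, for MN1-TEL against MN1. The background correction, normalization, filter, choice of probe and bounds were not tested in that way.

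Named genes were all members, from each list the genes of smallest adjusted p in a comparison, 4 at most, defining markers of other cell types, and the 3 genes with the highest correlation to each member. The members, the 12 lists of neighbouring genes and the marker lists of mast cells and of 8 other cell types were chosen with earlier results of these data known. Genes named outside the rule, such as Lat2 by array, Cpa3, Il33, Hnmt and Aoc1, were chosen after their values were seen. The place of each probe within its gene was not analysed here. Alternatives changed the normalization, the offset, the filter, the probe that stands for a gene, the samples in the fit, the weights, the moderation and the replicate block, and left out each array in turn.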

Additional observations from a re-analysis of the deposited data

How the results depend on the processing

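Each result was recomputed under 23 alternatives, of which the scaling to the median of the kept probes was chosen after seeing the data. The falls of Fcer1a and Ms4a2 in both del DBD comparisons, of Fcer1g in del DBD against MN1-TEL and of Hdc in MN1-TEL against MN1 kept their call under all of them. In MN1-TEL against MN1, median scaling over all probes gave 3 members higher, with Fcer1a at 1.35 and Ms4a2 at 0.73 past the threshold and Slc18a2 at 0.57 and Cd200r3 at 0.25. In del DBD against MN1 it gave 0 members higher, with Fcer1g at 0.31 (adjusted p = 0.0529), Hdc at -0.51 (0.0112), Slc18a2 at 0.0287 and Cd200r3 at -0.18 (0.445), and in del DBD against MN1-TEL 0 higher, with Hdc at 0.36 (0.0701). The median scaling over kept probes, where the median change over all genes was -0.17 in MN1-TEL and -0.16 in del DBD against MN1, gave 0 members higher in both, with Fcer1g at 0.22 (0.182) and -0.19 (0.276) and Hdc at -1.0025 past the threshold in del DBD against MN1 (0.000299). It called 1935 genes higher and 3247 lower in MN1-TEL against MN1. The cause of these differences was not tested.

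For Slc18a2 in MN1-TEL against MN1 the sign also turned with an offset of 50 (0.004), without background correction (0.0119), with the authors' values (0.0017) and with array weights (0.13), all far from the threshold. In del DBD against MN1, 0 members were higher and Fcer1g missed the threshold at 0.29 with the authors' values (adjusted p = 0.0588), and at 0.31 with no filter (0.0629), with detection p under 0.05 (0.0502) and with every kept probe tested (0.0540). Cd200r3 missed it at -0.59 with no filter (0.0706) and with every kept probe (0.0545). Testing every kept probe called 7743 in MN1-TEL against MN1, against 4995 genes, since more features were tested. With only the 2 groups compared, Hdc in del DBD against MN1-TEL was 0.50 (0.0653) and 0 members were higher. Array weights gave 2 members higher in MN1-TEL against MN1, with Fcer1a at 1.36 (0.0108), and Hdc at -0.30 in del DBD against MN1 (0.0361).

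The correlations of same-numbered deviations were -0.16 to 0.18, so no shared effect of the replicate number was seen. Whether same-numbered samples were made together is not said in the labels, and these correlations cannot show it. With the replicate block, Fcer1g in del DBD against MN1 was 0.31 (adjusted p = 0.0783), with 0 members higher, and no other call of a member changed. A chip block was not run because the column names give no chip.

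Leaving out each array gave ranges as follows. In MN1-TEL against MN1, members higher were 1 to 2 and lower 1 to 2, and changes were 0.25 to 1.59 for Fcer1a, -0.17 to 0.47 for Ms4a2, -0.39 to 0.21 for Slc18a2 (0.18 without MN1-TEL replicate 2 and 0.16 without MN1 replicate 3) and -0.48 to -0.10 for Cd200r3. In del DBD against MN1, members higher were 0 to 1, with 0.25 to 0.35 for Fcer1g, whose call was lost without any del DBD or MN1 array (adjusted p = 0.0615 to 0.149), and -0.67 to -0.49 for Cd200r3, lost without those arrays or MN1-TEL replicate 3 (0.0518 to 0.144). In del DBD against MN1-TEL, members higher were 0 to 1, with 0.40 to 0.62 for Hdc, lost without del DBD replicate 1 (0.0821) or 3 (0.0668) or MN1-TEL replicate 3 (0.0635).

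Of the genes named from the lists for their call, 44 of 50 in MN1-TEL against MN1, 35 of 43 in del DBD against MN1 and 33 of 40 in del DBD against MN1-TEL kept it under every alternative that tested them, and 1 reversed (Chst11, in MN1-TEL against MN1). With 3 arrays a group, changes such as that of Slc18a2 had intervals of about 0.71 to each side.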

Other observations

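Markers of cell types other than those described above were counted for the same cultures, without a test of the lists. The shares of all genes that rose and fell in each comparison are given above. Of 9 eosinophil markers 2 were tested, Prg2 and Ear6, and both fell in del DBD against MN1-TEL and rose in MN1-TEL against MN1, with 0 called in del DBD against MN1, while Epx and Siglecf were detected on 0 arrays. Their summed intensity was 379 to 757 in del DBD, 2012 to 4854 in MN1-TEL and 504 to 794 in MN1. The value of 4854 was that of MN1-TEL replicate 2, the array with the lowest Fcer1a level of its group. Of 7 tested megakaryocyte markers 1 rose and 1 fell in del DBD against MN1-TEL, 1 rose and 4 fell in del DBD against MN1, and 1 rose and 5 fell in MN1-TEL against MN1. Of 5 tested markers of T cells and ILC2, 1 rose and 1 fell in del DBD against MN1-TEL, 2 rose and 2 fell in del DBD against MN1, and 1 rose and 3 fell in MN1-TEL against MN1, with Cd3e, Cd3g and Cd4 detected on 0 arrays. Erythroid markers, of which 5 were tested, had 2 up and 0 down in del DBD against MN1-TEL, 2 and 3 in del DBD against MN1, and 0 and 3 in MN1-TEL against MN1. Of 2 dendritic cell genes 1, 2 and 1 rose in those comparisons and 0 fell, and the 1 tested B cell gene, Cd79b, rose, rose and fell.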
